A study of Mus musculus with 2 samples.

Results

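Interferon-stimulated genes are the genes that cells switch on when they sense foreign or misplaced nucleic acid. A list of 40 of them was followed in AIMP3-depleted mouse embryonic stem cells (mESCs). The members are 9 sensors of nucleic acid, 5 transcription factors, 17 effectors and 9 modifiers or regulators, and they were found on the array by the accession of each probe and its RefSeq symbol or synonym. Of the 40 members, 38 had a named probe among the 37018 genes of the array, and 33 could be tested among 24022 tested genes. *Mx1* and *Mx2*, a pair of GTPases that block viral nucleocapsids, had no probe that could be named here.

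The cells were AIMP3f/f;cre-ERT2 mESCs, derived from blastocysts, in which both AIMP3 alleles are flanked by loxP sites and a Cre recombinase fused to an oestrogen receptor is switched on by 4-hydroxytamoxifen (4-OHT). AIMP3-depleted cells received 2 μM tamoxifen for 4 days, and control cells, which carry the same alleles and the same Cre, received ethanol, both in medium with LIF. RNA from each of 2 depleted replicates was labelled with Cy5 and hybridized to its own Agilent array, and the RNA of 2 control replicates was pooled, labelled with Cy3 and put on both arrays. The cells were usually kept on feeder layers of embryonic fibroblasts (MEFs), and drugs were given in MEF-conditioned medium.

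Every value below is a log2 ratio of AIMP3-depleted (Cy5) over control (Cy3), so that a positive value means a higher level in depleted cells. The control was 1 pool, so the spread among control cultures is not in any p-value. Depleted RNA was in Cy5 on both arrays, and the effect of depletion and a dye difference of a gene cannot be told apart. The labels do not say whether the 2 depleted replicates were separate cultures, so the spread between these 2 arrays may be technical. The p-values draw mostly on that spread pooled over all tested genes, and less on the spread of the single gene (5.25 prior against 1 residual degrees of freedom). In bulk RNA, fewer cells of a type and less RNA per cell cannot be told apart.

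*Eef1e1*, the gene of AIMP3, had log2 ratios of -0.90 on both arrays, with a Benjamini-Hochberg adjusted p of 5.08e-05 in limma, the test behind every adjusted p given here. Between 59.3% and 60.6% of spots in a channel stood well above background, at a median signal of 2.68 to 3.31 times background, and the median SD between the arrays was 0.048. All 12 pluripotency markers on the list, *Pou5f1*, *Nanog* and *Sox2* among them, stood well above background on both arrays in either channel, and by the rule for changed genes given further on 2 were lowered (*Fgf4* and *Tdgf1*) and 0 raised. At an adjusted p under 0.05 with no fold minimum, 7 of these markers were lower and 4 were higher, where 23.7% and 30.6% of all tested genes were. By the rule for changed genes, 5.52% of all tested genes were raised and 0.791% were lowered. These shares also serve for the marker lists that follow. Of 14 tested fibroblast markers 10 were raised (*Col1a1*, *Col1a2*, *Col3a1*, *Col6a1*, *Pdgfrb*, *Pdgfra*, *Postn*, *Fbln2*, *Prrx1* and *Loxl1*), all 14 had positive ratios, and their summed level went from 26182 and 26787 in the control channel to 48200 and 49460 in the depleted channel. All 12 primitive endoderm markers were raised, with a median of 1.08 (*Gata4*, *Gata6*, *Sox17*, *Foxa2*, *Pdgfra*, *Dab2*, *Lama1*, *Lamb1*, *Col4a1*, *Col4a2*, *Sparc* and *Sox7*). Of 12 immune cell markers 7 were tested, and 2 were raised (*Lyz2*, 0.89, and *Tyrobp*, 0.60). At an adjusted p under 0.05, 6 of the 7 were higher and 1 was lower. Their summed level, most of it from *Itgam*, was 25519 and 25817 in the control and 31458 and 30689 in the depleted channel. *Ptprc*, *Itgax* and *Spi1* were not well above background, and *Cd68* had no named probe. The part of these cells in the ratios of the interferon-stimulated genes was not tested.

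Type I interferons bind a receptor whose kinases phosphorylate STAT proteins. The STATs join IRF9, enter the nucleus and bind the interferon-stimulated response element (ISRE) in the promoters of target genes. Pluripotent stem cells are known for a weak interferon response and for making some of its effectors without interferon, the IFITM proteins among them.

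The ISRE is shown first, because it is the element that interferon signalling is known to act through. The letters GAAA, any 2 bases and GAAA were searched on both strands of RefSeq promoters on GRCm38.p6, each 250 bases before and 50 after a start. A promoter was listed for 32 of the 40 members, and 15 of these (46.9%) held the letters, against 1079 of 27025 genes (3.99%). By role these were 5 of 7 sensors, 1 of 5 transcription factors, 8 of 14 effectors and 1 of 6 modifiers. Counted by promoter, the letters stood in 15 of 38 member promoters (39.5%) and in 1131 of 32851 promoters of the table (3.44%). The letters TTC, any 3 bases and GAA, the gamma-activated sequence (GAS), stood in 9 of 32 members (28.1%) and in 9.55% of genes. A match is a description of the letters and not a bound site. Below are all matches in 9 members the results turn on, with 10 bases on each side, written along each gene's own strand with the matched letters in capitals.

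Eif2ak2, chr17:78882535-78882564, minus strand: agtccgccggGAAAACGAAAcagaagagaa
Oas1a, chr5:120907520-120907555, minus strand: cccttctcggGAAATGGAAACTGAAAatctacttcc
Ifit1, chr19:34640775-34640804, plus strand: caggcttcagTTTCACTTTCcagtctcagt
Ifit1, chr19:34640794-34640823, plus strand: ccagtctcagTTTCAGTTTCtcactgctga
Bst2, chr8:71537577-71537612, minus strand: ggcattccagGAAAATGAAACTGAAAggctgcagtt
Ifitm2, chr7:140955988-140956017, minus strand: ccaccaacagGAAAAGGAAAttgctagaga
Ifitm3, chr7:141010723-141010752, minus strand: caaaattcagGAAAAGGAAActtctgagaa
Ifitm3, chr7:141010706-141010735, minus strand: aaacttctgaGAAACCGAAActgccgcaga
Gbp2, chr3:142620594-142620623, plus strand: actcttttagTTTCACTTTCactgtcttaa
Gbp3, chr3:142559989-142560024, plus strand: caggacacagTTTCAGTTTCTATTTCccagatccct
Isg15, chr4:156200865-156200906, minus strand: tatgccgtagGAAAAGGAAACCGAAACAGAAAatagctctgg

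Matches overlapped in 4 promoters, with 3 overlapping matches in *Isg15* and 2 each in *Oas1a*, *Bst2* and *Gbp3*. Of 18 runs of matched letters in the 15 members, 13 lay before the start, from -222 in *Stat2* to -20 in *Oas1a*, and 5 lay after it. *Bst2*, the member that fell, and *Xaf1*, a member that rose, are given with the whole window. The *Bst2* window holds the element from -130 to -115, and the *Xaf1* window holds no match with that spacing. *Ifi27* was not in the promoter table.

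Bst2, chr8:71537423-71537722, minus strand: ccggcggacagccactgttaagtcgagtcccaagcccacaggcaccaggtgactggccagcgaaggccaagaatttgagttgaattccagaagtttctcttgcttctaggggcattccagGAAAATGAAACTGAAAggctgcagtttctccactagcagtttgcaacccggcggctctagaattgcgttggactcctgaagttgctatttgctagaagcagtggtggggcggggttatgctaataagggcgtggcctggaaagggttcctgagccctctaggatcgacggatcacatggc
Xaf1, chr11:72301379-72301678, plus strand: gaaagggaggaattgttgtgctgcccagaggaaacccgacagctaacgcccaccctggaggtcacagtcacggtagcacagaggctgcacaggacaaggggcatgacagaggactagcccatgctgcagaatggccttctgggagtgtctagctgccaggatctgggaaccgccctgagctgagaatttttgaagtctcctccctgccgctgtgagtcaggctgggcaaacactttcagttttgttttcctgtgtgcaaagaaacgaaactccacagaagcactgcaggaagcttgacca

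**Figure D1:**
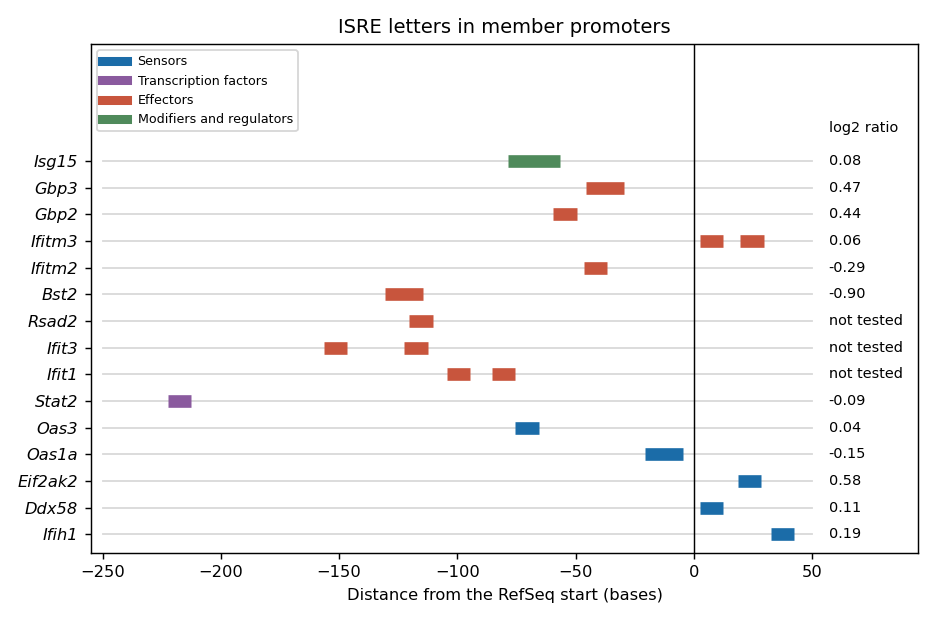
Position of the ISRE letters in the promoters of 15 members, in bases from the RefSeq start at 0, with role by colour and the mean log2 ratio of each gene at the right. Most runs lie before the start, and members with the letters range from -0.90 (*Bst2*) to 0.58 (*Eif2ak2*).

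Members with and without the ISRE letters are described side by side with all genes. The 12 tested members with the letters had a median log2 ratio of 0.07, and the 15 tested members with a promoter but no match had a median of -0.14. Over all genes the medians were 0.05 for 424 tested genes with the letters and 0.03 for 11449 without, and 8.49% and 6.32% of them were raised. Of the same genes 1.18% with the letters and 0.917% without were lowered. Among members with the letters 0 rose and 1 fell, and among those without 1 rose and 0 fell, counts too small to read.

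In AIMP3-depleted mESCs the interferon-stimulated genes did not move as a block. A gene was counted as raised or lowered when its mean ratio passed 1.5-fold with an unadjusted p under 0.05 by limma. Of 33 tested members 2 rose, *Ifi27* and *Xaf1*, and 1 fell, *Bst2*. Of all tested genes 5.52% were raised and 0.791% were lowered, so the members' 2 rises are near the background count and 1 lowered member among 33 is too few to read. The median over members was -0.09, compared with 0.02 over all tested genes, and it was -0.02 on each array taken alone. By sign 16 members were higher and 17 were lower, each in the same direction on both arrays, and 21 of 33 lay within 1.2-fold of the control, as did 70.7% of all tested genes. That count holds for the processing used here, and some members of low signal had larger ratios with the scanner's processed signals. Among them were *Ifih1* (0.49 against 0.19), *Ifit2* (0.31 against 0.10), *Usp18* (0.58 against 0.08) and *Cmpk2* (-0.35 against -0.14). The cause was not tested. At an adjusted p under 0.05 with no fold minimum, 7 members were higher and 11 were lower, where 30.6% and 23.7% of all tested genes were. The 11 include *Adar* and *Zbp1*, whose second probes had the opposite sign.

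**Figure D2:**
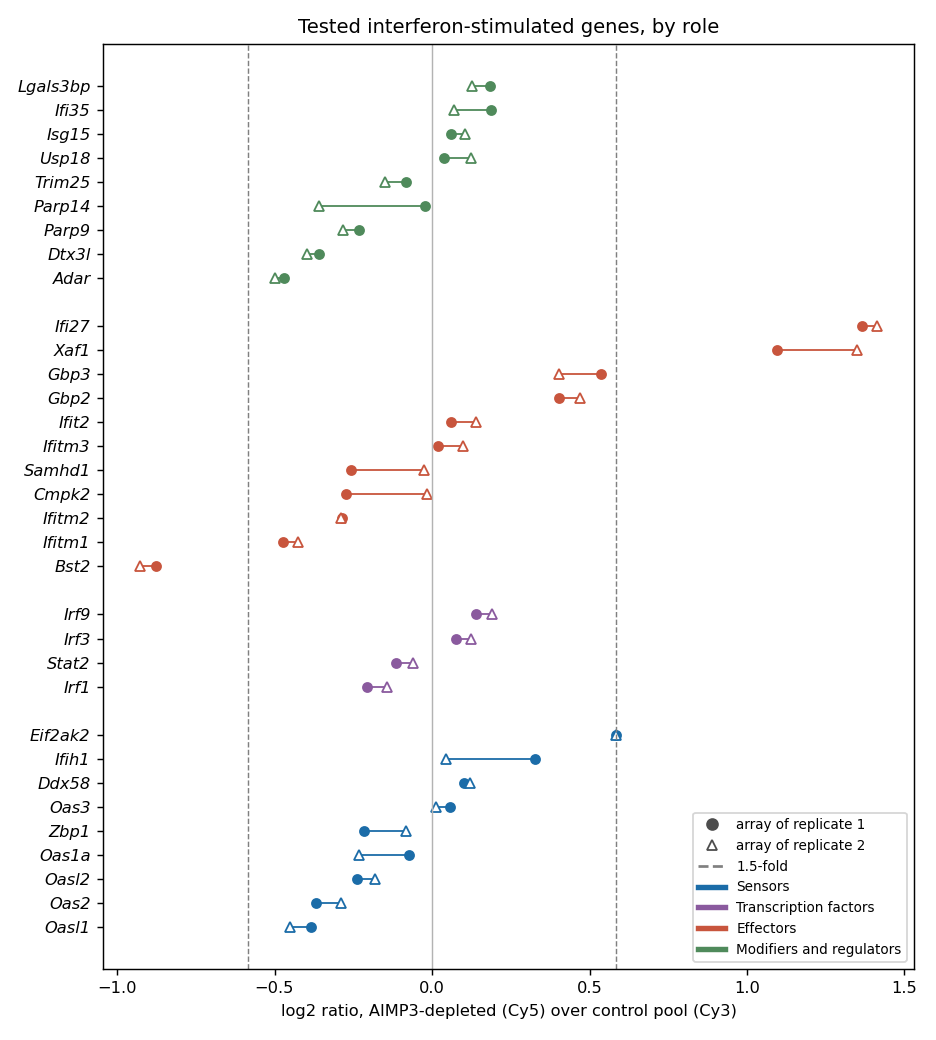
Log2 ratio of AIMP3-depleted over control for each of the 33 tested members on the array of replicate 1 (filled circles) and of replicate 2 (open triangles), joined by a line, grouped and coloured by role. *Ifi27* and *Xaf1* lie beyond the dashed 1.5-fold line on the right and *Bst2* beyond it on the left.

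Most members gave a signal in the control cells already. In the control channel 32 of the 38 members with a probe (84.2%) were well above background on both arrays, compared with 69.9% of the 20892 genes of the array that carry a RefSeq name and 62.8% of all 37018. All 9 sensors were detected there (100%). Of 5 transcription factors 4 were detected (80%), of 15 effectors with a probe 11 (73.3%), and of 9 modifiers 8 (88.9%). In the depleted channel 32 members were detected as well. The effector *Cmpk2* was detected in the control channel alone and the modifier *Usp18* in the depleted channel alone.

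Dim in both channels were 5 members, 4 of them effectors that strong interferon responses induce. *Ifit1*, which binds viral RNA that lacks a proper cap, had a signal over background of 1.36 and 1.57 in the control channel and 1.09 and 1.28 in the depleted channel. *Ifit3*, its partner, had 1.52 and 1.33 in the control and 1.68 and 1.46 in the depleted channel. *Rsad2*, which encodes viperin, had 1.73 and 2.0 in the control and 1.84 and 1.86 in the depleted channel. These probes give no usable ratio. *Ifi44* had 1.64 and 1.33 in the control and 1.195 and 1.143 in the depleted channel. *Irf7*, the factor that amplifies interferon production, had 1.32 and 1.31 in the control and 1.37 and 1.34 in the depleted channel. For none of the 5 was the signal well above background in either channel, which leaves only a bound and does not show that the genes were silent.

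Among the sensors none passed the 1.5-fold threshold, and their median was -0.15 with a range from -0.42 to 0.58. On each array alone that median was -0.07 and -0.08, and with the OAS family counted among the effectors it was 0.15, so it gives no direction for the sensors. *Eif2ak2*, which encodes PKR, the double-stranded RNA kinase that halts translation by phosphorylating eIF2α, had a log2 ratio of 0.58 on each array. Its mean of 0.5841 lay just under the 1.5-fold threshold of 0.5850, with an adjusted p of 1.64e-04 by limma. With the scanner's processed signals it was 0.67 and past the threshold, as it was with median centring (0.74) and in the authors' value table (0.71). By the brightest probes it was the sensor with the highest ratio and the only one of 9 that was higher at an adjusted p under 0.05, though a dimmer probe of *Zbp1* lay above it.

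The cytosolic RNA helicases did not pass the test. *Ifih1*, which encodes MDA5, a sensor of long double-stranded RNA, had 0.33 and 0.04 (mean 0.19 ± 0.20, SD, n = 2; adjusted p = 0.0681 by limma). *Ddx58*, which encodes RIG-I, a sensor of RNA ends with a triphosphate, had 0.10 and 0.12 (adjusted p = 0.0729 by limma), and its dimmer probe had 0.11 and 0.04. Both genes had positive ratios on both arrays. *Zbp1*, a sensor of Z-form nucleic acid that can start cell death, was measured by 2 probes that disagreed in sign. The brighter, well above background in both channels, had -0.21 and -0.08 (mean -0.15, adjusted p = 0.0471 by limma), while the dimmer, on another transcript accession and not above background in the control, had 0.78 and 1.23, a lower bound. The direction of *Zbp1* therefore depends on the probe, and so does its call, since the dimmer probe passed 1.5-fold.

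The oligoadenylate synthetases make the messenger that activates RNase L. *Oas2* had -0.37 and -0.29 (mean -0.33 ± 0.055, SD, n = 2; adjusted p = 1.67e-03 by limma). *Oas1a* had -0.07 and -0.23 on its brighter probe and -0.17 and -0.12 on the other, with an adjusted p of 0.0518 by limma for the brighter. *Oas3*, the neighbour of *Oas2* on chromosome 5 with 0 genes between them, had 0.06 and 0.01 (adjusted p = 0.525 by limma). Of the 3, only *Oas2* was lower at an adjusted p under 0.05. The synthetase-like genes *Oasl1* and *Oasl2*, also adjacent on chromosome 5, were both lower. *Oasl1*, which holds back translation of *Irf7* mRNA, had -0.38 and -0.45 (mean -0.42 ± 0.047, SD, n = 2; adjusted p = 6.30e-04 by limma), and -0.65 with the processed signals, past 1.5-fold. *Oasl2* had -0.24 and -0.18 (adjusted p = 8.85e-03 by limma). These genes are similar in sequence, and how far their probes share targets was not tested.

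The transcription factors had the narrowest range of the 4 roles and also the fewest tested members, and a range tends to widen with more genes. Their 4 tested members ranged from -0.17 to 0.17 with a median of 0.01. *Irf9*, the DNA-binding partner of the STATs, had 0.14 and 0.19 (mean 0.17 ± 0.035, SD, n = 2; adjusted p = 0.0212 by limma). *Stat2*, the STAT of type I signalling, had -0.11 and -0.06 (adjusted p = 0.147 by limma). *Irf3*, the constitutive factor that sensors activate, had 0.07 and 0.12 (adjusted p = 0.105 by limma). *Irf1*, a factor of the interferon gamma response, had -0.21 and -0.14 (adjusted p = 0.0183 by limma). *Irf9* and *Irf1* passed the adjusted test at a size of under 1.2-fold, in opposite directions. With median centring in place of loess, which moves the median of all genes from 0.02 to 0.18, *Irf1* and *Stat2* had positive ratios of 0.07 and 0.14, both under that median.

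The effectors, with 11 tested members the largest role, spread most widely, from -0.90 to 1.39, and held all 3 members past the threshold. Their median was 0.06, and 0.02 and 0.10 on each array alone, and it turned to -0.14 with the OAS family among the effectors, so it gives no direction. *Ifi27*, a small hydrophobic protein that type I interferon induces strongly, had 1.37 and 1.41 and was 2.62-fold higher (mean 1.39 ± 0.033, SD, n = 2; adjusted p = 3.53e-05 by limma). Its probe had a signal over background of 13.02 and 13.58 in the control and 54.6 and 48.3 in the depleted channel. It passed the threshold under each alternative of background, normalization and filter, and it has 1 probe.

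*Xaf1*, a binding partner of the apoptosis inhibitor XIAP, had 1.095 and 1.351 and was 2.33-fold higher (mean 1.22 ± 0.18, SD, n = 2; adjusted p = 6.59e-05 by limma). The rise was present on both arrays. A dimmer probe of *Xaf1*, not well above background in the control channel, had 0.41 and 0.49, which is a lower bound. The mean of that probe, 0.45, lay under the 1.5-fold threshold, so the call of *Xaf1* rests on its brighter probe. In the methods' t-test on the 2 ratios, which has no shared estimate of the spread, *Xaf1* did not pass, and *Ifi27* was then the only member raised.

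*Bst2*, which encodes tetherin, a membrane protein that holds budding virus on the cell surface, had -0.87 and -0.93 and was 1.87-fold lower (mean -0.90 ± 0.037, SD, n = 2; adjusted p = 5.25e-05 by limma). Its signal over background was 295 and 273 in the control and 236 and 190 in the depleted channel, so it was well measured on both sides. Of the other promoters with overlapping ISRE letters, *Gbp3* had a mean ratio of 0.47, *Isg15* of 0.08 and *Oas1a* of -0.15.

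The IFITM proteins, which restrict viral entry at membranes, were split. *Ifitm1*, which also marks early germ cells, had -0.47 and -0.43 (mean -0.45 ± 0.032, SD, n = 2; adjusted p = 4.42e-04 by limma). *Ifitm2* had -0.29 on both arrays (adjusted p = 2.22e-03 by limma). *Ifitm3* had 0.02 and 0.10 (adjusted p = 0.321 by limma). The 3 genes lie next to each other on chromosome 7, with *Ifitm1* between the other two, and the outer pair differed in sign. With median centring the ratios of *Ifitm1*, *Ifitm2* and *Ifitm3* were -0.07, -0.01 and 0.36, in the same order. The signal was 241 to 285 times background for *Ifitm2* and 264 to 366 times for *Ifitm3*. How far the probes of these similar genes share targets was not tested.

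Guanylate-binding proteins are GTPases that attack the vacuoles of intracellular microbes, and the 2 members among them were higher at an adjusted p under 0.05 without passing 1.5-fold. *Gbp2* had 0.40 and 0.47 (mean 0.44 ± 0.046, SD, n = 2; adjusted p = 5.27e-04 by limma). *Gbp3* had 0.54 and 0.40 (mean 0.47 ± 0.094, SD, n = 2; adjusted p = 6.11e-04 by limma). They are near neighbours on chromosome 3 with 1 gene between them, and each has ISRE letters shortly before its start. With the processed signals *Gbp3* reached 0.67 and with median centring *Gbp2* reached 0.62, both past the threshold. Other genes of the family outside the members passed neither test, with -0.05 for *Gbp4*, -0.13 for *Gbp6* and 0.08 for *Gbp9*, and how far probes of the family share targets was not tested.

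By their brightest probes the remaining effectors did not pass either test. *Ifit2*, of the same family as *Ifit1* and adjacent to *Ifit3* on chromosome 19, had 0.06 and 0.14 (adjusted p = 0.111 by limma). *Samhd1*, which hydrolyses deoxynucleotides, had -0.26 and -0.02 (adjusted p = 0.107 by limma), and its dimmer probe had -0.32 and -0.28, with a small unadjusted p of 6.41e-04 by limma, so that its result rests on the probe. *Cmpk2*, a mitochondrial nucleotide kinase next to *Rsad2* on chromosome 12, had -0.27 and -0.02 and did not pass the test (adjusted p = 0.114 by limma). Its depleted channel was not well above background, and the mean of 1.11-fold lower does not set a minimum. For *Samhd1* and *Cmpk2* the arrays differed by more than the size of the mean ratio.

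**Figure D3:**
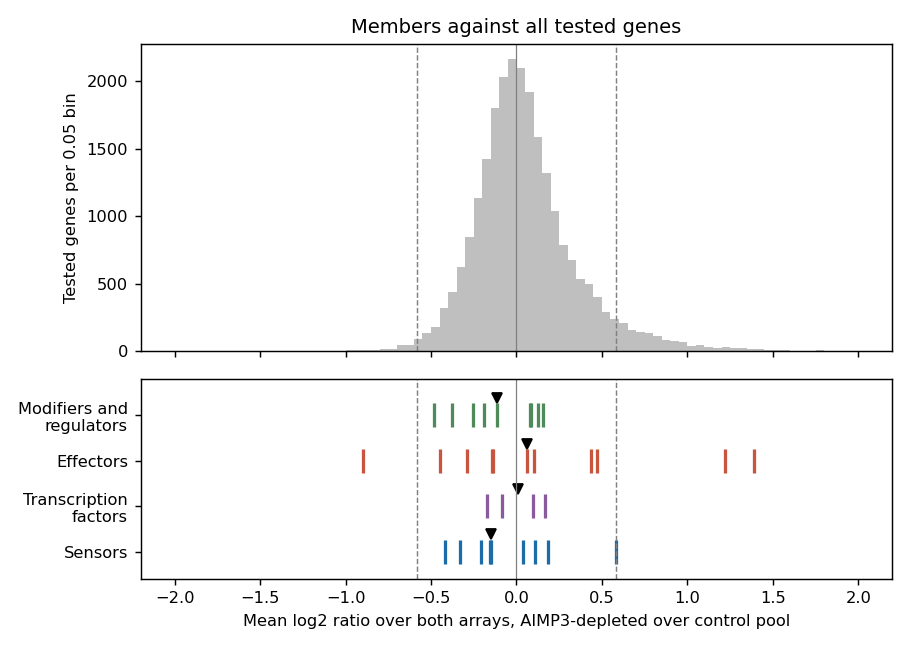
Upper panel, number of tested genes per bin of 0.05 in mean log2 ratio; lower panel, the mean ratio of each tested member by role, with a triangle at each role's median (sensors -0.15, transcription factors 0.01, effectors 0.06, modifiers -0.12). The members lie within the spread of all genes, and effectors reach furthest on both sides.

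The modifiers and regulators had a median of -0.12, with -0.02 and -0.15 on each array alone, and none of the 9 passed 1.5-fold. That median turned positive with median centring (0.03) and with the next brightest probes (0.08), so it gives no direction. *Isg15*, the ubiquitin-like modifier that gives the ISG15 pathway its name, had 0.06 and 0.11 (adjusted p = 0.158 by limma), and 0.28 and 0.14 on a dimmer probe. On the array of replicate 2 the dimmer probe was near the floor, with a signal over background of 1.09 in the control and 1.06 in the depleted channel. *Usp18*, which removes ISG15 and restrains the interferon receptor, had 0.04 and 0.12 (adjusted p = 0.186 by limma). Its control channel was not well above background, and the mean of 1.06-fold higher does not set a minimum. *Isg15* and *Usp18* are classical readouts of interferon signalling, and neither passed the test. In the authors' value table *Usp18* was at 0.62, past 1.5-fold.

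*Adar*, which edits adenosine to inosine in double-stranded RNA and so keeps cellular RNA from being sensed, had -0.47 and -0.50 on its brighter probe (mean -0.48 ± 0.022, SD, n = 2; adjusted p = 3.27e-04 by limma). A second probe of nearly the same brightness had 0.37 and 0.26. Both probes were well above background in both channels and opposite in sign, so no direction can be given for the gene. *Trim25*, a ubiquitin ligase that activates RIG-I, had -0.08 and -0.15 (adjusted p = 0.0729 by limma).

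*Dtx3l*, *Parp9* and *Parp14* form a cluster on chromosome 16, and all 3 had negative ratios. *Dtx3l*, a ubiquitin ligase that works as a complex with PARP9, had -0.36 and -0.40 (mean -0.38 ± 0.026, SD, n = 2; adjusted p = 7.97e-04 by limma), and its dimmer probe, not well above background in the depleted channel, gives only a bound. *Parp9* had -0.23 and -0.28 (mean -0.26 ± 0.036, SD, n = 2; adjusted p = 3.93e-03 by limma). *Parp14*, an ADP-ribosyltransferase, had -0.02 and -0.36 (mean -0.19 ± 0.24, SD, n = 2; adjusted p = 0.0872 by limma), the widest gap between arrays of any tested member. The complex partners were thus lower together, by less than 1.5-fold. With median centring *Dtx3l*, *Parp9* and *Parp14* had -0.20, -0.06 and -0.02, beside a median of 0.18 over all tested genes.

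*Lgals3bp*, a secreted glycoprotein that binds galectins, had 0.18 and 0.13 on its brighter probe (adjusted p = 0.0280 by limma) and 0.68 and 0.75 on the other, which passed 1.5-fold. Its probes had the same sign and unequal size. *Ifi35*, a leucine zipper protein that interferons induce, had 0.19 and 0.07 (adjusted p = 0.0678 by limma).

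Several members rest on the choice of probe or normalization. Of the 33 tested members, 24 kept their sign under every alternative of background, normalization, filter and probe, 25 kept their call, 17 kept both, and 9 reversed at least once. *Ifi27* and *Bst2*, each with 1 probe, passed 1.5-fold under each alternative of background, normalization and filter. For members with 1 probe the probe alternatives only repeat the value.

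**Figure D4:**
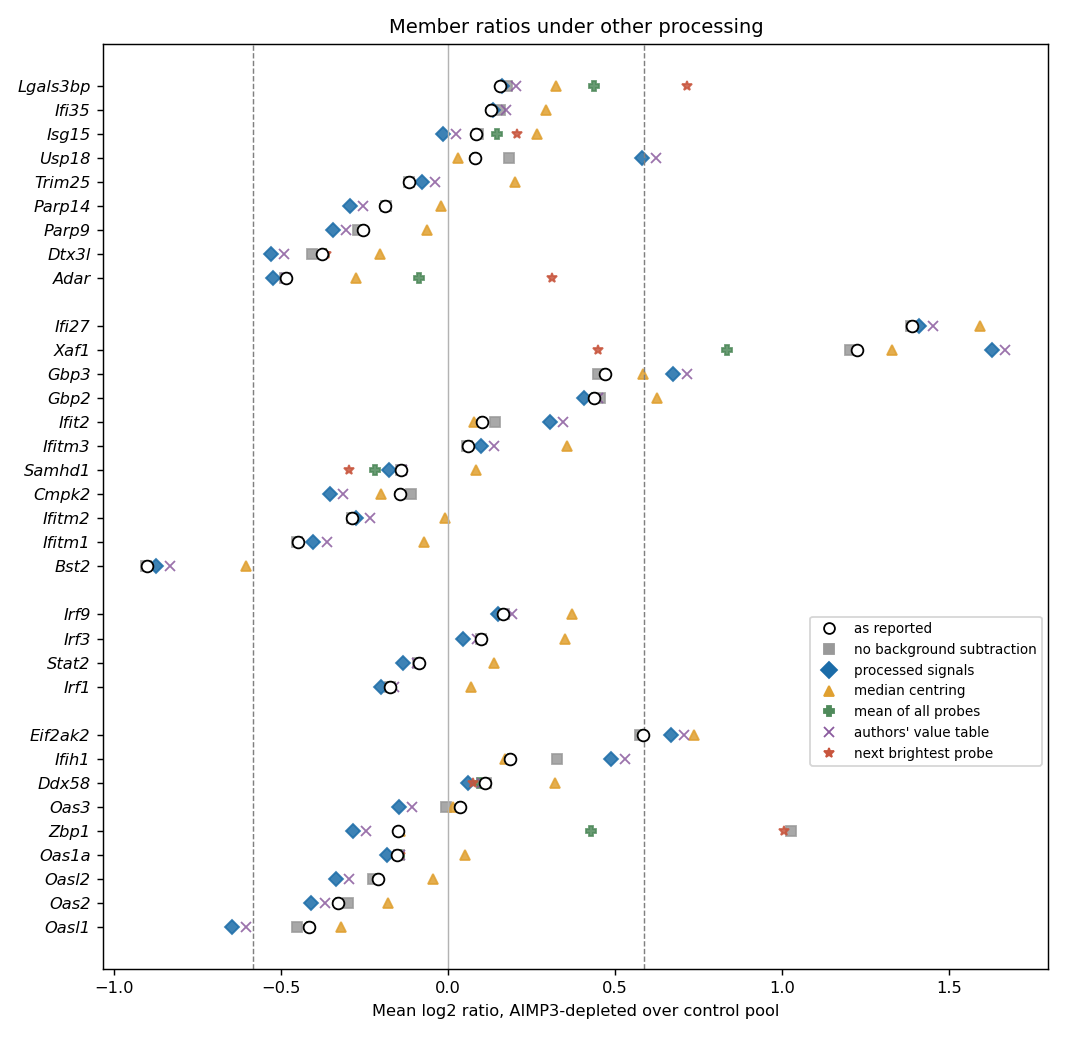
Mean log2 ratio of each tested member as reported (open circles) and under 6 other ways of processing the same arrays (symbols), with dashed lines at 1.5-fold. *Ifi27* stays right of the line and *Bst2* left of it under each setting drawn, while *Zbp1* and *Adar* cross 0 with another probe.

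Upstream of the members, the genes that make, receive and relay interferon were described from a list of 58, of which 47 were tested, 3 were raised and 0 were lowered, beside 5.52% and 0.791% of all tested genes. Of 15 ligand genes 7 were tested, and 0 were raised or lowered. *Ifnb1*, the interferon that sensing induces first, and *Ifng* were not well above background. *Ifnk* had -0.35 and -0.27 (mean -0.31; adjusted p = 2.09e-03 by limma), *Ifna5* had 0.11 and 0.09, *Ifna1* had -0.02 and -0.12, *Ifna12* had -0.12 and 0.02, and *Ifnl3* had -0.25 and -0.02. *Ifna2*, at -0.06, and *Ifnab*, at -0.06, turned positive with the processed signals. The alpha interferon genes are close copies of each other and are uncertain.

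The receptor subunits were all present, and 6 of 6 had positive ratios under 1.5-fold. *Ifngr2* had 0.40 and 0.36 (mean 0.38; adjusted p = 8.16e-04 by limma) and *Ifngr1* had 0.23 and 0.27 (mean 0.25; adjusted p = 4.43e-03 by limma), the 2 chains of the interferon gamma receptor. The type I receptor chains *Ifnar1* and *Ifnar2* had 0.01 and 0.10 as mean ratios, and *Ifnar1* turned negative with the processed signals, with all probes averaged and in the authors' value table. *Il10rb* had 0.17 and *Ifnlr1* had 0.09. Of the kinases, *Jak2* had 0.28 and 0.43 (adjusted p = 2.09e-03 by limma), *Jak1* had 0.30 and 0.31 (adjusted p = 1.71e-03 by limma), and *Tyk2* had -0.17 and -0.05, a sign that turned with the processed signals, with median centring and in the authors' value table.

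Among 6 other sensors that were tested, *Ifi204*, a DNA-binding protein of the interferon-inducible p200 family, rose with 0.895 and 1.199 (mean 1.05; adjusted p = 1.41e-04 by limma). Of 13 adaptors and factors of sensing 1 was raised, 9 were higher at an adjusted p under 0.05 and 1 was lower, with a median of 0.27, where 30.6% and 23.7% of all tested genes were higher and lower by that rule. *Ticam1*, an adaptor of some Toll-like receptors, had 0.74 and 0.81 (mean 0.77; adjusted p = 8.04e-05 by limma). *Irf2*, which opposes *Irf1*, was raised at 0.67 and 0.53 among 12 inhibitors and nucleases, which had a median of -0.03. Without background subtraction *Irf2* was at 0.53, under the threshold. The median of the adaptors, 0.27, stands beside -0.09 for the members and 0.02 for all tested genes.

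**Figure D5:**
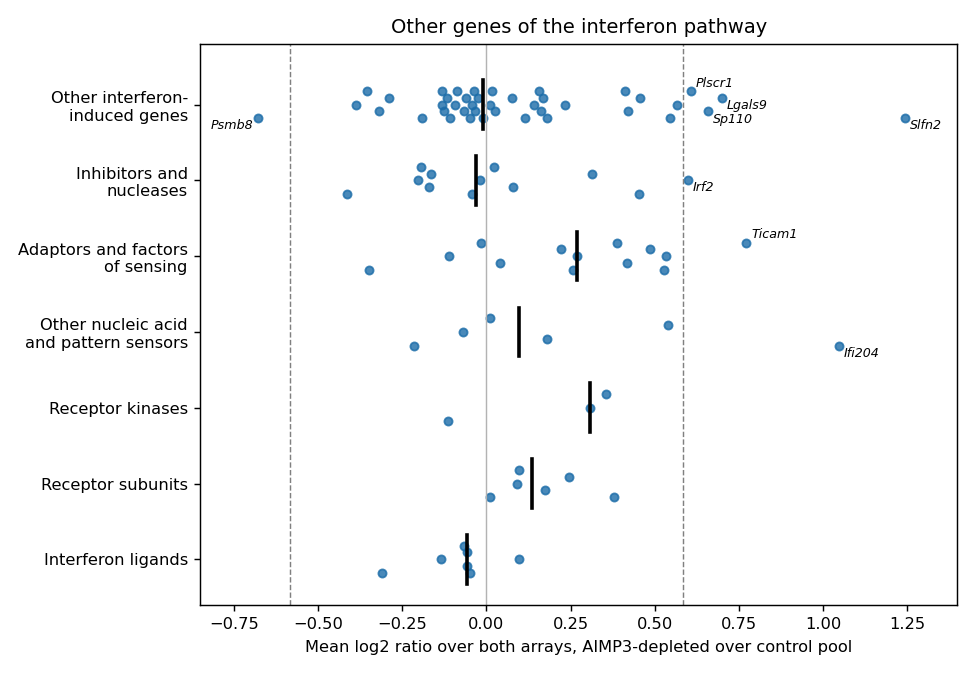
Mean log2 ratio of each tested gene of the interferon pathway outside the 40 members, by step of the pathway, with a bar at the median of each step and dashed lines at 1.5-fold. All receptor subunits lie right of 0, adaptors have a median of 0.27, and genes past the lines are named.

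A further 52 interferon-induced genes outside the members were mixed as well, with 41 tested, 4 raised, 1 lowered and a median of -0.01, beside the same 5.52% raised and 0.791% lowered over all tested genes. *Slfn2*, a regulator of immune cell quiescence, was raised with 1.23 and 1.26 and was at least 2.37-fold higher, since its control channel was not well above background (adjusted p = 3.53e-05 by limma). *Lgals9*, a galectin, had 0.58 and 0.82, *Sp110*, a nuclear body protein, had 0.69 and 0.63, and *Plscr1*, a phospholipid scramblase, had 0.51 and 0.70, all raised. *Psmb8*, an immunoproteasome subunit, was lowered with -0.74 and -0.61 (mean -0.68; adjusted p = 1.63e-04 by limma). *Sp110* and *Plscr1* fell under 1.5-fold with the processed signals, at 0.49 and 0.57.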

How the data were processed

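Gene expression was measured on 2 two-colour Agilent arrays on 1 slide, with RNA of depleted cells in the red channel (Cy5) and pooled control RNA in the green (Cy3). The authors deposited each array's scanner output (Feature Extraction 11.5.1.1, per the file headers), which holds the intensity of each spot and its local background, processed signals and a log10 ratio of red over green. In the authors' deposited value table the log2 ratios equal those of the processed signals plus 0.040 (replicate 1) and 0.039 (replicate 2), within 0.01 for 100% of 55249 probes with 1 spot. Its medians are 0.091 and 0.111, its centring is not stated, and 0 columns were left out.

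The design had assumed spot signals in general, and the files hold medians of signal and local background and no means, so the medians were taken. They were corrected by normexp (offset 50) and loess in limma. Control spots and outlier spots (215 and 227) were dropped. Of the probes, 33012 of 55681 were well above background in 1 channel or more on both arrays, and the brightest such probe stood for its gene. Accessions gave a RefSeq name on GRCm38.p6 to 27509 probes. Probe coordinates are left out, since the array's design uses an earlier build, and promoters are RefSeq's on GRCm38.p6. Ratios were tested against 0 with lmFit and eBayes (1 residual and 5.25 prior degrees of freedom), and p-values were adjusted by Benjamini-Hochberg over 24022 genes. The steps were tested on simulated data.

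The members, their roles and the other gene lists were chosen with earlier results of these data known, so lists are described by counts and medians with no test. Every member with a probe is named. Outside the members, genes past the threshold and the tested ligands, receptors and kinases are named, and a few others (untested ligands and immune markers, and defining pluripotency markers) are named for their absence or presence alone. *Gbp4*, *Gbp6*, *Gbp9* and *Itgam* were chosen after their values were seen. One listed marker is left out, and most other markers are described by counts. Alternatives covered background correction, normalization, the filter on dim probes, the choice of probe, the value table, each replicate, the threshold and the methods' t-test. Precision is limited by having 2 arrays. The tools were jsonlite 2.0.0, limma 3.58.1, R 4.3.3 and its package data.table (version 1.17.8).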

Additional observations from a re-analysis of the deposited data

How the results depend on the processing

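No paired analysis was possible because the 2 depleted replicates were set against 1 control pool. The number of members raised was 4 with processed signals and with median centring and 5 in the authors' value table. It was 7 by adjusted p at any fold (30.6% of all tested genes higher) and 1 by the methods' t-test. After Benjamini-Hochberg adjustment of that t-test 0 members were left, as were 0 of the 864 genes raised by it. The number lowered was 2 with processed signals and in the authors' value table. It was 0 at 2-fold and 11 by adjusted p at any fold (23.7% of all tested genes lower). For processed signals, median centring, the value table and 2-fold, the share of all genes called was not worked out. Those counts are therefore not read as results about the members. The median over members was -0.0064 without background subtraction, -0.13 with processed signals, 0.077 with median centring, -0.036 with no filter on dim probes, 0.036 with the mean of all probes, -0.094 in the authors' value table and -0.023 to -0.017 with a replicate left out. The sensor median was -0.0064, -0.18, 0.013 and 0.036 without background subtraction, with processed signals, with median centring and with the mean of all probes, and -0.084 to -0.074 with a replicate left out. The median of transcription factors was -0.044 with processed signals, 0.24 with median centring and 0.10 with no filter. The effector median was 0.14 in the authors' value table, 0.014 with no filter and 0.018 to 0.099 with a replicate left out. The modifier median was 0.029 with median centring and between -0.149 and -0.023 with a replicate left out. Median centring moved the median of all genes to 0.18. The cause of these shifts was not tested.

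Reversed were *Zbp1* without background subtraction (1.03, where its other probe became the brightest) and with the mean of all probes (0.43), *Oas3* without background subtraction (-0.0064), with processed signals (-0.15) and in the authors' value table (-0.11), and *Isg15* with processed signals (-0.015). With median centring *Oas1a* (0.052), *Irf1* (0.067), *Stat2* (0.14), *Samhd1* (0.084), *Trim25* (0.20) and *Tyk2* (0.051) reversed. *Ifna2* and *Ifnab* reversed without background subtraction (0.018 and 0.058), with processed signals (0.25 and 0.016) and in the authors' value table (0.29 and 0.056). *Ifnar1* reversed with processed signals (-0.047), the mean of all probes (-0.072) and the authors' value table (-0.0068), and *Tyk2* with processed signals (0.0054) and the authors' value table (0.045).

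Chosen after seeing the data, taking the next brightest probe gave a median over members of 0.059, a sensor median of 0.036 and a modifier median of 0.082, and reversed *Zbp1* (1.00), *Adar* (0.31) and *Ifnar1* (-0.016). Counting the OAS family with the effectors, also chosen after seeing the data, gave a sensor median of 0.15 and an effector median of -0.14. The stricter filter on dim probes left out *Cmpk2* and *Usp18* and changed no call or sign of the other members. With a replicate left out no member changed sign, and there was no test.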
